A study of Mus musculus with 11 samples.

Results

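The collagen gene family was read from RNA sequencing of mouse mammary carcinoma lines that differ in whether they keep the human HER2 oncogene. Its members were the genes whose symbol has the form of a collagen chain (Col, a type number, the letter a and a chain number), and 44 of the 21846 genes in the count table met this rule. They were sorted by textbook structure into 11 fibrillar chains, 6 basement membrane chains (type IV), 6 beaded filament chains (type VI), 9 FACIT chains (fibril-associated collagens with interrupted helices), 4 transmembrane chains, 2 multiplexins, 3 short-chain network chains, the anchoring fibril chain Col7a1 and 2 others. Col21a1, a further FACIT chain, was not analysed here.

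The cells came from mammary tumors of virgin female mice of the HER2-transgenic strain FVBhuHER2 and were grown in culture, so no animal tissue was sampled. MamBo89 was derived from tumor A and kept HER2. MamBo43 was derived from tumor B and was HER2-positive until it lost HER2 under trastuzumab, an antibody against HER2. MamBo38, HER2-negative, came from a tumor that grew after MamBo43 cells had been injected into mice. Each of these lines was sequenced untreated, after 60 days at 30 µg/ml trastuzumab, and after 30 days at that dose followed by 30 days without it. The MamBo43 cultures treated in this way (MamBo43 TRT, n = 2) and MamBo38 (n = 4) formed the HER2-negative group (n = 6), and MamBo89 (n = 4) with untreated MamBo43 (n = 1) the HER2-positive group (n = 5). An untreated MamBo89 library named AG3 was taken as the clone that the study describes. The MamBo43 TRT cultures were mixed, because the study saw islets of polygonal cells remain among spindle-like cells. The study also measured some HER2-negative cells in untreated MamBo43. The study's methods speak of replicates of each sample, without saying whether these were separate cultures, whereas each combination of line and treatment is 1 library here, apart from untreated MamBo38 and untreated MamBo89 (n = 2 each, AG3 included). The p-values below measure only the spread between these libraries.

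Collagens are secreted or membrane-bound proteins in which alpha chains wind around each other into a helix. Fibrillar types I, III and V are the main fibers of connective tissue and are made chiefly by mesenchymal cells, whereas types II, IX and XI together form the thin fibers of cartilage. Type IV builds the sheet-like network of basement membranes beneath epithelia, type VI forms beaded filaments around cells, and FACIT chains sit on the surface of fibers. Epithelial cells that take on a mesenchymal state, as in epithelial-mesenchymal transition, are known for raised type I and type III collagen.

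The bases before the start of the chains with the largest changes are shown for orientation. Windows of 250 bases upstream of a RefSeq start (GRCm38.p6) matched 35 of the 44 members with 38 windows. The printed bases are those that carry no exon in the GENCODE M21 annotation, in which Col1a2 also has an earlier start, so that its stretch lies inside the gene by that annotation. Capitals mark 3 motifs searched on both strands, the GC box GGGCGG, the box CCAAT and the TATA box TATAAA, which do not overlap one another here. The chains shown are those with a window that rose most (Col1a2 and Col3a1) and fell most (Col9a1) with HER2 loss.
Col1a2, before its RefSeq start, chr6:4505370-4505492, plus strand, ending 125 bases before the start: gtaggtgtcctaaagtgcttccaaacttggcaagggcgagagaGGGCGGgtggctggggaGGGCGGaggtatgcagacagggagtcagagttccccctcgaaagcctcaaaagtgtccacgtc
Col3a1 promoter, chr1:45311288-45311537, plus strand, ending at the start: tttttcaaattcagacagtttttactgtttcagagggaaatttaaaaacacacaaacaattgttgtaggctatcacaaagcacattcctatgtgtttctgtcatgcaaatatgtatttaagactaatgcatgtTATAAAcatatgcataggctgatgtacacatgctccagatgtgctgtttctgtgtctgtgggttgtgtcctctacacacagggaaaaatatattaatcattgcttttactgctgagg
Col9a1 promoter, chr1:24177360-24177609, plus strand, ending at the first of its 2 RefSeq starts: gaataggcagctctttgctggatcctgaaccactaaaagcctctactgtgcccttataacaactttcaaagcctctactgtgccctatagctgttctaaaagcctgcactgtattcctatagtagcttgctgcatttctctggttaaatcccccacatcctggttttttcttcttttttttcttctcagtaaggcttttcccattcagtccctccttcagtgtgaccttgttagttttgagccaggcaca
GGGCGG was found in 57.9% of the members' windows and in 32.7% of the 32851 windows of all genes. CCAAT was found in 34.2% and 33.8%, and TATAAA in 13.2% and 12.4%. In the stretches shown, Col1a2 had GGGCGG at 205 and 188 bases before its start, Col3a1 had TATAAA at 117 bases, and the Col9a1 stretch held none of the 3 motifs. A match is a description of letters and shows no binding.

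Library totals ranged from 17040454 to 27127662 counts, and 3 counts, taken as the detection floor, correspond to 0.112 to 0.179 CPM (counts per 1000000, scaled by the trimmed mean of M-values). Floors and counting intervals cover counting error only. Mouse Erbb2, the endogenous counterpart of the human transgene, had 147 ± 20.8 CPM (SD, n = 5) in HER2-positive and 21.8 ± 5.30 CPM (SD, n = 6) in HER2-negative libraries. Whether reads of the transgene were counted as mouse Erbb2 was not tested. AG3 lay outside the range of the other MamBo89 libraries in 20 of the 23 collagens with more than 20 counts in a MamBo89 library (5 above, 15 below). Any 1 of 4 libraries is often the highest or the lowest, and the share over all genes was not counted. Library names carry a code, and 3 of the 4 MamBo38 libraries carry a second one in its place. The untreated MamBo38 library without it had 0.446 CPM of Col4a4 and 2.06 CPM of Col14a1, against 6.0 to 8.82 and 7.53 to 8.77 CPM in the other 3. In the annotation, 28 of the 44 members overlap another gene, on the same or the opposite strand. The kit keeps no strand, so overlaps on opposite strands cannot be separated either. Of the 44, 4 share more than 1% of their 75-base windows with another gene. The summed level of 6 luminal epithelial markers (Krt8, Krt18, Krt19, Epcam, Cdh1 and Krt7) was 2455 to 3827 CPM in HER2-positive libraries and 1.35 to 2.73 CPM in MamBo38. In MamBo43 TRT it was 2388 and 374 CPM after withdrawal and after 60 days, and Krt19 had at most 3 counts in every library. Of the 7 fibroblast markers that are not collagens (Pdgfra, Thy1, Fap, Lum, Dpt, Pi16 and Tcf21), the sum was 818 to 989 CPM in MamBo38, 161 and 152 CPM in MamBo43 TRT and 24.5 to 65.6 CPM in HER2-positive libraries, with Lum and Tcf21 at 0 in all 11 and Pdgfra making up most of the sum. Endothelial markers summed to at most 0.893 CPM and adipocyte markers to at most 0.179 CPM in any library. Immune markers summed to 26.8 to 49.99 CPM in MamBo38, 3.73 and 4.47 CPM in MamBo43 TRT and 1.02 to 16.7 CPM in HER2-positive libraries, and Cd68 was the only one of the 6 over 3 counts. Myoepithelial markers summed to 0.502 to 1.25 CPM in MamBo38 and up to 157 CPM elsewhere, and pericyte markers to 34.8 to 60.7 CPM in HER2-negative and 148 to 227 CPM in HER2-positive libraries. Of the pericyte markers, Notch3 went from 177 CPM in HER2-positive to 16.5 CPM in HER2-negative libraries on average, and Cspg4 the other way, from 0.482 to 34.6 CPM. The part of these cell type markers in the collagen differences was not tested. In bulk RNA, fewer cells of a type and less RNA per cell cannot be told apart.

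Within each line, values below are listed in a fixed order, with AG3, untreated, withdrawal and 60 days for MamBo89, withdrawal and 60 days for MamBo43 TRT, and the untreated library with the second code, the untreated one without it, withdrawal and 60 days for MamBo38. Levels between genes are compared as CPM per kilobase of the longest coding transcript.

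Collagens took up a larger part of the transcriptome in HER2-negative libraries, and its makeup changed from FACIT to fibrillar chains. They held 1.01 to 1.21% of all counts in MamBo43 TRT, 0.828 to 0.909% in MamBo38 and 0.270 to 0.339% in HER2-positive libraries, so the groups did not overlap. As a level per length, FACIT chains made up 44.3 to 51.6% of the summed collagen level in MamBo89 and 41.2% in untreated MamBo43, but 2.04 to 3.01% in the HER2-negative libraries. The share of fibrillar chains went from 3.58 to 5.55% in MamBo89 and 20.3% in untreated MamBo43 to 43.9 to 44.9% in MamBo38 and 70.2 to 74.4% in MamBo43 TRT. Type IV chains varied less, with a summed level of 116 to 224 CPM per kb in MamBo89, 110.1 in untreated MamBo43, 167 to 225 in MamBo43 TRT and 227 to 266 in MamBo38. Multiplexins, in effect Col18a1, stood at 393 to 535 CPM per kb in MamBo38 against 35.6 to 133 in HER2-positive libraries. These sums were computed within a library and have no test. With the length of all exons joined instead, fibrillar chains made up 31.9 to 32.7% in MamBo38 and 61.7 to 66.05% in MamBo43 TRT, and FACIT chains 40.7 to 47.4% in HER2-positive and 2.42 to 3.42% in HER2-negative libraries.

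**Figure D1:**
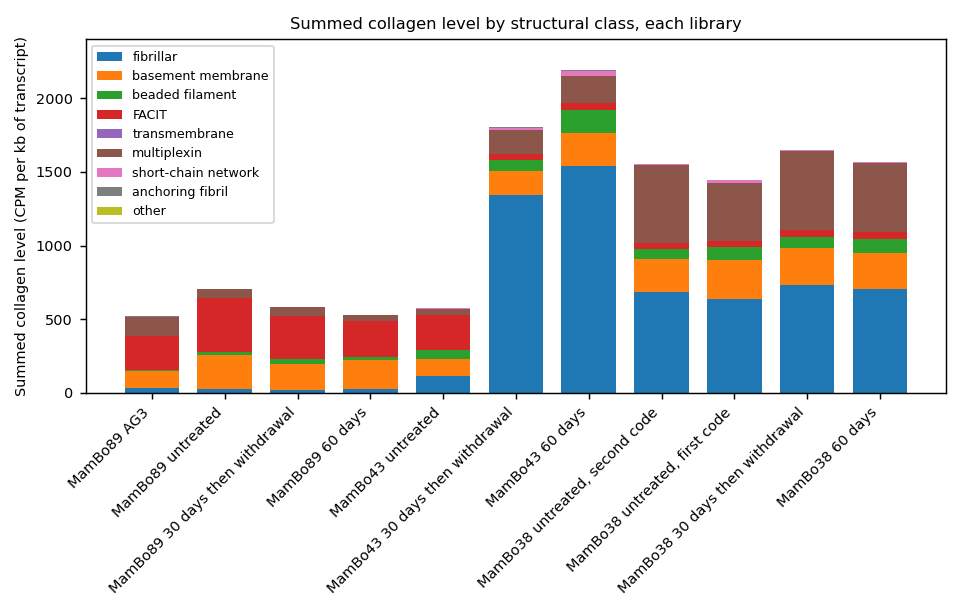
Stacked bars give the summed level of the collagen chains in CPM per kb of transcript (vertical axis) for each of the 11 libraries (horizontal axis), colored by structural class. FACIT chains (red) fill 41.2% to 51.6% of the bar in the 5 HER2-positive libraries on the left, and fibrillar chains (blue) fill 43.9% to 74.4% in the 6 HER2-negative libraries on the right.

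The leading chain differed between the lines. Col9a1, a type IX chain, had the highest level per length of any collagen in all 5 HER2-positive libraries, at 124 to 272 CPM per kb. Col1a2, a type I chain, led in both MamBo43 TRT libraries (875 and 924 CPM per kb) and in 3 of the 4 MamBo38 libraries (527, 459, 571 and 540.3 over the 4). In the untreated MamBo38 library with the second code, the multiplexin Col18a1 was at 527.4 CPM per kb against 527.1 for Col1a2. The lead of Col1a2 in MamBo38 depended on the length used. With all exons joined, Col18a1 had the highest level in all 4 MamBo38 libraries (312 to 426 CPM per kb), Col1a2 in both MamBo43 TRT libraries (376.5 and 397.5) and Col9a1 in the 5 HER2-positive ones (94.2 to 206). Over the whole family, 18 of the 44 members had more than 3 counts in every library, and 4 never exceeded 3 counts.

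**Figure D2:**
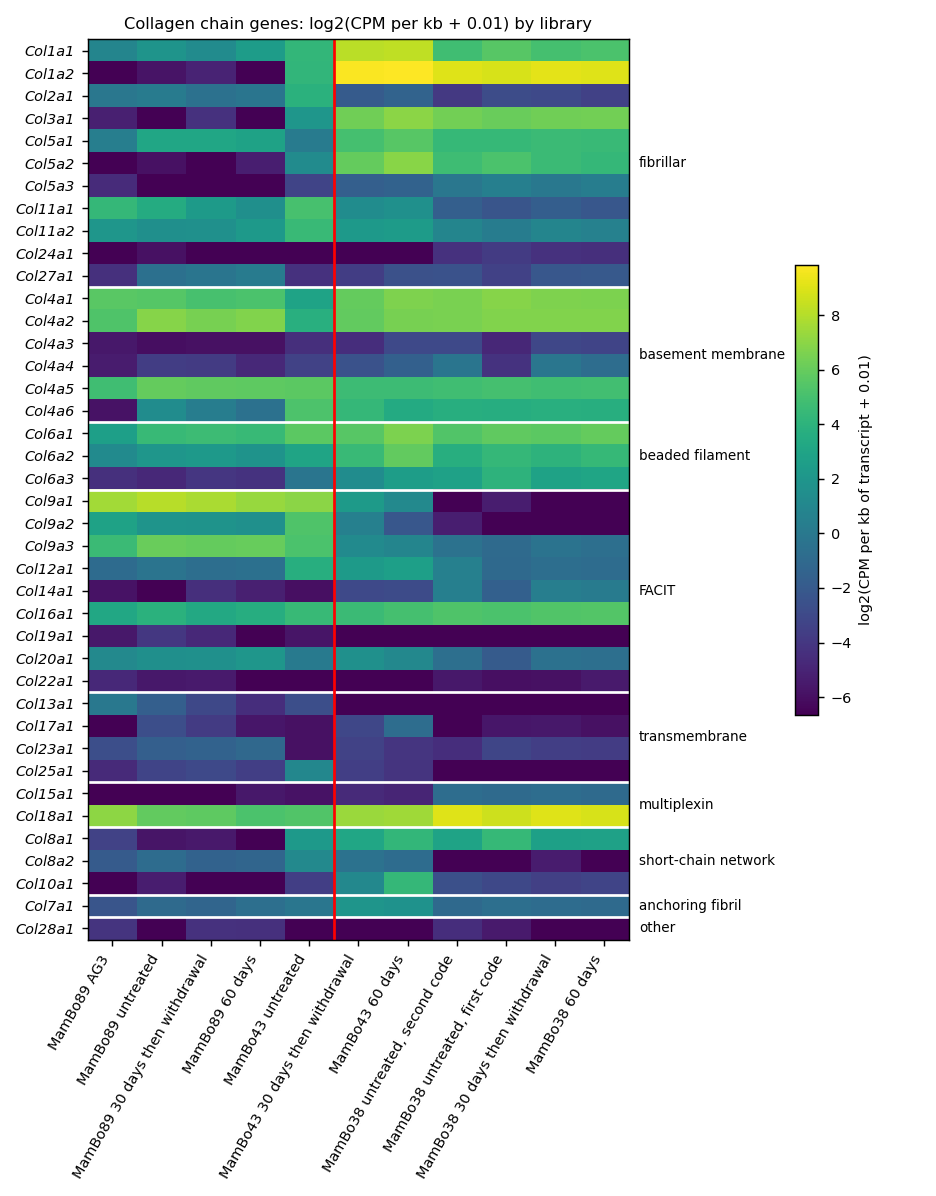
Color gives log2(CPM per kb + 0.01) for the 40 members with more than 3 counts in at least 1 library (rows, ordered by class) in the 11 libraries (columns). The red line separates the 5 HER2-positive libraries on the left from the 6 HER2-negative ones. Col1a2, Col3a1 and Col5a2 are dark in MamBo89 and bright to the right of the line, while Col9a1, Col9a2 and Col9a3 show the opposite.

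The main comparison asked which collagens differed between HER2-negative and HER2-positive cells. Of the 30 members with enough counts for the edgeR test, 16 were called higher and 8 lower in HER2-negative libraries, that is, with an adjusted p below 0.1 and at least 1 log2 unit of change. Values after ± are standard errors (SE) of the fit unless named SD. Over all 12364 genes tested, 15.8% were called higher and 17% lower. The median log2 fold change was 1.3 for the 30 collagens and -0.04 for all genes tested. The groups did not overlap in any library for 17 of the 30 (13 higher, 4 lower), against 34.9% of all genes tested. The other 14 members did not pass the filter on low counts, so these counts cover only the better expressed part of the family.

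Fibrillar chains changed in both directions, 6 called higher and 4 lower of the 10 tested, and the 6 were all of the tested chains of types I, III and V, which form the fibers of connective tissue. Col1a2, the alpha 2 chain of type I (chromosome 6, 4504814 to 4541544), was nearly absent from MamBo89 and had 0, 0.0461, 0.117 and 0 CPM in MamBo89, 98.1 in untreated MamBo43, 4679 and 4939 in MamBo43 TRT and 2819, 2454, 3055 and 2889 in MamBo38. It was 7.46 ± 2.18 higher on the log2 scale (SE, edgeR adjusted p = 0.0139). The HER2-positive group was thus split between MamBo89, at 2 counts or fewer, and untreated MamBo43, at 2502 counts. Without untreated MamBo43 the fitted value was 16.2, against those few counts, and with the tumor of origin as a covariate it was 5.14, both called.

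Col1a1, the other chain of type I collagen (chromosome 11, 94936224 to 94953042), was present in every line and had 10.7, 22.2, 14.5 and 32.6 CPM in MamBo89, 115 in untreated MamBo43, 1682 and 1846 in MamBo43 TRT and 162, 275, 191 and 213 in MamBo38. MamBo43 TRT stood far above MamBo38, and the lowest HER2-negative library still lay above untreated MamBo43. The difference was 4.22 ± 0.99 on the log2 scale (edgeR adjusted p = 0.00432), but was 2.66 and not called with the tumor of origin as a covariate.

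Col3a1, the type III chain that forms fibers with type I, had 0.0969, 0, 0.233 and 0 CPM in MamBo89, 22.9 in untreated MamBo43, 439 and 709.9 in MamBo43 TRT and 445, 384, 439 and 458 in MamBo38. Col5a2, a type V chain that lies within type I fibers and limits their width, had 0, 0.0461, 0 and 0.110 CPM in MamBo89, 16.2 in untreated MamBo43, 419.5 and 789 in MamBo43 TRT and 172, 239.7, 160.4 and 136 in MamBo38. Both were at 4 counts or fewer in each MamBo89 library and intermediate in untreated MamBo43. Their log2 fold changes were 6.67 ± 1.66 (edgeR adjusted p = 0.00606) and 6.57 ± 1.67 (adjusted p = 0.00684). They were 12.5 and 12.80 without untreated MamBo43 and 4.39 and 4.29 with the tumor as a covariate, all called.

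Col5a1, the partner of Col5a2 in type V collagen, behaved differently in the HER2-positive lines, with 10.9, 71.8, 72.5 and 60.7 CPM in MamBo89, 9.49 in untreated MamBo43, 269.5 and 399 in MamBo43 TRT and 178, 178, 203 and 196 in MamBo38. Unlike its partner it was well expressed in 3 of the 4 MamBo89 libraries and lowest in untreated MamBo43. It was 2.40 ± 0.56 higher with HER2 loss (edgeR adjusted p = 0.00439), with no overlap between groups. The minor type V chain Col5a3 had 0.194, 0, 0 and 0 CPM in MamBo89, 0.588 in untreated MamBo43, 1.86 and 2.22 in MamBo43 TRT and 5.68, 8.42, 6.02 and 7.87 in MamBo38, with a log2 difference of 4.96 ± 1.03 (edgeR adjusted p = 0.00208).

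The 4 fibrillar chains called lower are chains of cartilage. Col2a1, the type II chain (chromosome 15, 97975602 to 98004695), was highest in untreated MamBo43 and had 4.6, 5.94, 3.56 and 4.29 CPM in MamBo89, 74.2 in untreated MamBo43, 1.32 and 1.91 in MamBo43 TRT and 0.289, 0.669, 0.596 and 0.412 in MamBo38. Its log2 fold change was -4.41 ± 0.97 (edgeR adjusted p = 0.00292), and every HER2-negative library lay below every HER2-positive one.

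The type XI chain Col11a1, which sets the width of cartilage fibers, had 158, 87.1, 38.4 and 22.5 CPM in MamBo89, 252 in untreated MamBo43, 19.9 and 23.2 in MamBo43 TRT and 2.36, 1.51, 2.27 and 1.65 in MamBo38. The 60-day library of MamBo89 lay within the range of MamBo43 TRT, the other 3 MamBo89 libraries lay above it, and MamBo38 was lowest. It fell by 3.72 on the log2 scale (SE 0.95, edgeR adjusted p = 0.00693).

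Col11a2, the second type XI chain, had 24.3, 18.2, 18.6 and 27.8 CPM in MamBo89, 143 in untreated MamBo43, 28.9 and 31.7 in MamBo43 TRT and 10.8, 7.31, 10.7 and 9.29 in MamBo38. MamBo43 TRT lay just above MamBo89 in this chain, between it and untreated MamBo43. The log2 fold change of -1.49 ± 0.63 (edgeR adjusted p = 0.0679) rested on untreated MamBo43, without which it was -0.43 and was not called. Leaving out any 1 of the 4 MamBo38 libraries also ended the call, at -1.34 to -1.39.

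Col27a1, a fibrillar chain of cartilage and of developing epithelia, had 0.291, 5.16, 6.47 and 8.92 CPM in MamBo89, 0.314 in untreated MamBo43, 0.539 and 1.22 in MamBo43 TRT and 1.25, 0.614, 1.61 and 1.80 in MamBo38. AG3 and untreated MamBo43 lay below every HER2-negative library, so the lower level in that group (-1.84 ± 0.80 log2, edgeR adjusted p = 0.0730) came from the other 3 MamBo89 libraries. It lost its call without either untreated MamBo38 library, either MamBo43 TRT library, or the untreated, withdrawal or 60-day MamBo89 library, at log2 fold changes of -1.38 to -1.86. Col24a1, the remaining fibrillar chain, had at most 8 counts in any library and was not tested.

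Of 7 FACIT chains tested, 3 were called lower and 2 higher, and the 3 were the chains of type IX, which decorates cartilage fibers. Col9a1 (chromosome 1, 24177610 to 24252684) had 712, 1044, 831 and 616 CPM in MamBo89, 477 in untreated MamBo43, 19.3 and 8.14 in MamBo43 TRT and 0, 0.0558, 0 and 0 in MamBo38. The 4 MamBo38 libraries together held 1 count of Col9a1, while MamBo43 TRT kept 393 and 213 counts. Over the groups it differed by -7.32 ± 1.67 on the log2 scale (edgeR adjusted p = 0.00365). 

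Col9a3, a further chain of type IX collagen, had 74.2, 206, 187 and 194 CPM in MamBo89, 112 in untreated MamBo43, 7.11 and 5.58 in MamBo43 TRT and 2.26, 1.56, 2.38 and 1.99 in MamBo38, and differed by -5.47 ± 0.49 on the log2 scale (edgeR adjusted p = 1.06e-05). Col9a2, the remaining type IX chain, had 21.0, 10.7, 10.3 and 8.92 CPM in MamBo89, 116 in untreated MamBo43, 4.22 and 0.611 in MamBo43 TRT and 0.0482, 0, 0 and 0 in MamBo38. Like Col2a1 it was highest in untreated MamBo43, and its log2 fold change was -5.35 ± 1.47 (edgeR adjusted p = 0.0102). Of the 75-base windows of Col9a3, 4.24% also occur in transcripts of Tcfl5, which lies antisense to it, and the kit keeps no strand. The share was 0 for Col9a1 and Col9a2.

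As a set, the chains of types II, IX and XI (a grouping chosen after their values were seen, and so given with no test) summed to 236 to 359 CPM per kb in HER2-positive libraries, 12.8 to 16.4 in MamBo43 TRT and 2.06 to 2.97 in MamBo38. That was 44.8 to 51.1% of the collagen level in the first of these and under 1% in the others. Types I, III and V, summed over Col1a1, Col1a2, Col3a1, Col5a1 and Col5a2, made up 0.601 to 2.42% in MamBo89, 7.89% in untreated MamBo43, 69.8 to 73.9% in MamBo43 TRT and 43.7 to 44.7% in MamBo38.

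**Figure D3:**
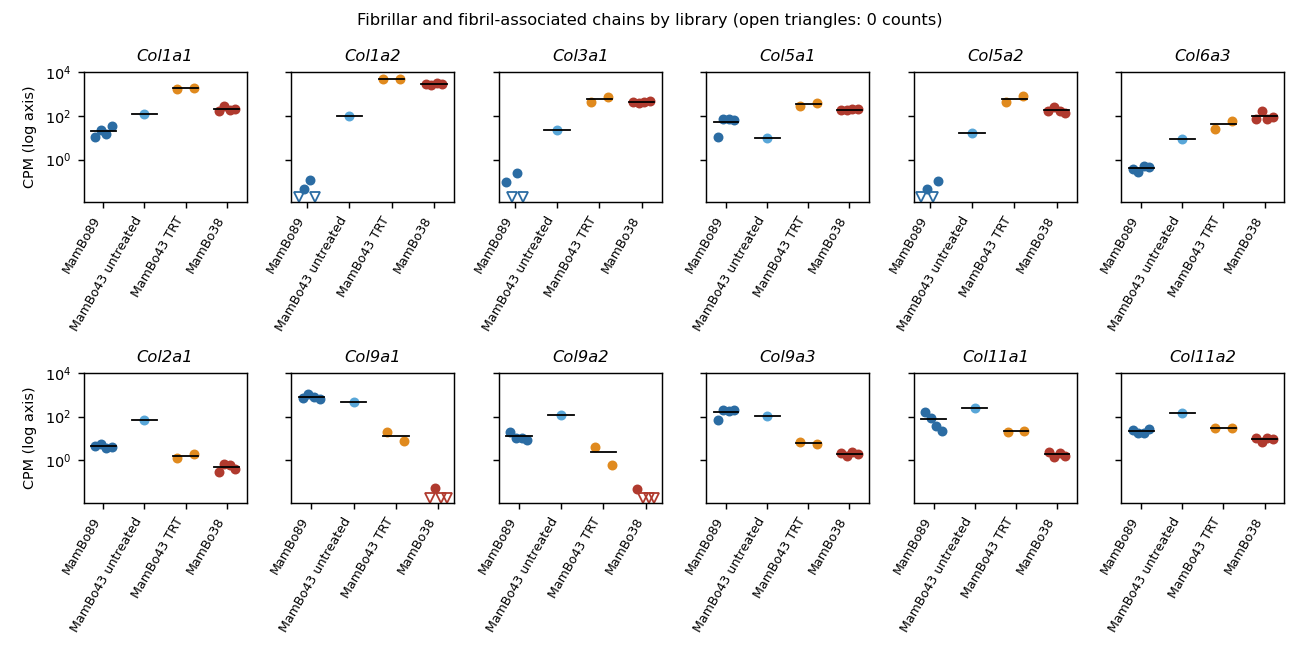
Points give CPM (log axis) of 12 chains in each library, by group (MamBo89, n = 4; MamBo43 untreated, n = 1; MamBo43 TRT, n = 2; MamBo38, n = 4). Black bars are group means where no library is at 0, and open triangles at the bottom mark libraries with 0 counts. In the upper row, the connective tissue chains and Col6a3 lie higher in both HER2-negative groups than in MamBo89 or untreated MamBo43, whereas the cartilage chains of the lower row drop to their lowest values in MamBo38.

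Among the other FACIT chains, Col14a1, which binds fibers of mature connective tissue, was higher in HER2-negative libraries. It had 0.0485, 0, 0.233 and 0.110 CPM in MamBo89, 0.0392 in untreated MamBo43, 0.736 and 0.802 in MamBo43 TRT and 8.77, 2.06, 8.52 and 7.53 in MamBo38, and differed by 5.76 ± 1.02 on the log2 scale (edgeR adjusted p = 0.000760). MamBo38 carried most of this, since both MamBo43 TRT libraries stayed under 1 CPM. Col16a1, found at the surface of several kinds of fiber, was expressed in every library with 48.4, 76.3, 50.6 and 65.6 CPM in MamBo89, 116 in untreated MamBo43, 125 and 167 in MamBo43 TRT and 206, 188, 218 and 230.5 in MamBo38, and differed by 1.40 ± 0.25 log2 (edgeR adjusted p = 0.000723). With the tumor of origin as a covariate it was 0.70 and was not called, and untreated MamBo43 stood close to MamBo43 TRT.

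Col12a1, a FACIT chain of tendon and of tumor stroma, was not called (-0.36 ± 1.04 log2, edgeR adjusted p = 0.794) but differed widely by line, at 147 CPM in untreated MamBo43, 57.6 and 72.8 in MamBo43 TRT, 6.25 to 9.12 in MamBo89 and 5.63 to 16.9 in MamBo38. Col20a1 was not called either, with 5.49 to 20.6 CPM in HER2-positive and 1.28 to 15.3 CPM in HER2-negative libraries. Col19a1 and Col22a1 had at most 5 counts in any library.

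Of 5 basement membrane chains tested, 2 were called higher and none lower. Col4a1 and Col4a2 are the ubiquitous pair of type IV collagen, and of these Col4a1 was called. Its values were 323, 299, 216 and 237 CPM in MamBo89, 49.6 in untreated MamBo43, 407 and 661 in MamBo43 TRT and 625, 754, 674 and 653 in MamBo38, every HER2-negative library above every HER2-positive one, with a log2 difference of 1.48 ± 0.38 (edgeR adjusted p = 0.00717). Col4a2, which had 257, 740.0, 559 and 685 CPM in MamBo89, 86.1 in untreated MamBo43, 384 and 573 in MamBo43 TRT and 588, 697, 687 and 668 in MamBo38, was not called (0.36 ± 0.44 log2, edgeR adjusted p = 0.507). Its untreated MamBo43 library was the lowest of the 11, while 2 MamBo89 libraries lay within the HER2-negative range, 1 above it and AG3 below it.

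Col4a5 and Col4a6 form a further type IV network in epithelia. Col4a5 had 180.0, 405, 370.0 and 354 CPM in MamBo89, 338 in untreated MamBo43, 169 and 164 in MamBo43 TRT and 179, 205, 185 and 189.6 in MamBo38. The HER2-negative libraries were lower by 0.86 ± 0.18 on the log2 scale (edgeR adjusted p = 0.00225), short of the fold required for a call. Col4a6 ranged from 1 count in AG3 to 248 CPM in untreated MamBo43, with 71.1 to 134 CPM in HER2-negative libraries, and was not called (0.72 ± 1.17 log2, edgeR adjusted p = 0.628). Col4a4, of the kidney and lung network, was low and had 0.145, 0.691, 0.641 and 0.275 CPM in MamBo89, 0.863 in untreated MamBo43, 1.67 and 3.29 in MamBo43 TRT and 8.67, 0.446, 8.82 and 6.0 in MamBo38, with a called log2 fold change of 3.18 ± 0.76 (edgeR adjusted p = 0.00480). The untreated MamBo38 library without the second code lay within the HER2-positive range of this gene. Col4a3, its partner, had at most 26 counts in a library and was not tested in this comparison.

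Beaded filament chains were higher in HER2-negative libraries in all 3 members tested. Col6a3, the largest chain of type VI collagen, was nearly absent from MamBo89 and had 0.388, 0.276, 0.525 and 0.440 CPM in MamBo89, 8.51 in untreated MamBo43, 26.1 and 59.8 in MamBo43 TRT and 71.1, 166, 71.8 and 85.3 in MamBo38. Its log2 fold change was 5.26 ± 1.03 (edgeR adjusted p = 0.00144), against 2.47 ± 0.44 for Col6a2 (adjusted p = 0.000787) and 1.21 ± 0.42 for Col6a1 (adjusted p = 0.0319). Without AG3, Col6a1 was at 0.98 and under the fold required.

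Col6a2 had 10.9, 19.2, 22.6 and 16.1 CPM in MamBo89, 36.9 in untreated MamBo43, 106 and 271 in MamBo43 TRT and 59.8, 92.6, 75.3 and 98.2 in MamBo38, and no library of one HER2 group reached the range of the other. Col6a1, the most abundant of the type VI chains per length, had 26.0, 92.0, 104 and 88.9 CPM in MamBo89, 214 in untreated MamBo43, 194 and 389.7 in MamBo43 TRT and 172, 231, 212 and 257 in MamBo38. Untreated MamBo43 lay within the HER2-negative range of Col6a1, so that MamBo89 alone was low. Col6a4 and Col6a5 had at most 3 counts in any library, and Col6a6 had 0 counts in all 11. Col6a5 and Col6a6 have 2.89% and 2.97% of their 75-base windows in common.

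Transmembrane collagens, which span the cell membrane, were scarce in every library. Col23a1 had 0.824, 1.75, 2.04 and 2.70 CPM in MamBo89, 0.0392 in untreated MamBo43, 0.490 and 0.268 in MamBo43 TRT and 0.193, 0.558, 0.417 and 0.375 in MamBo38 and was called lower in HER2-negative libraries (-1.93 ± 0.69 log2, edgeR adjusted p = 0.0360). Untreated MamBo43, with 1 count, was the lowest of all 11 libraries, so the higher level was confined to MamBo89 among the HER2-positive lines. The other 3 chains of this class were not tested in this comparison. Among them, Col17a1, which anchors epithelial cells in hemidesmosomes, was highest in the 60-day MamBo43 library at 3.25 CPM and stayed under 1 CPM in every other.

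Among the remaining classes, Col18a1, a multiplexin of basement membranes whose end fragment is endostatin, was one of the most abundant collagens. It had 745, 329, 308 and 199 CPM in MamBo89, 229.9 in untreated MamBo43, 924 and 1014 in MamBo43 TRT and 2951, 2194, 2991 and 2640 in MamBo38, and differed by 2.55 ± 0.45 on the log2 scale (edgeR adjusted p = 0.000751). AG3 lay at the top of the HER2-positive range and still below MamBo43 TRT. Col15a1, the other multiplexin, had 2.62 to 3.08 CPM in MamBo38 and at most 3 counts in the other lines.

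Col8a1, of the short-chain networks found beneath endothelium and around growing vessels, had 0.436, 0.0461, 0.0583 and 0 CPM in MamBo89, 24.1 in untreated MamBo43, 44.4 and 98.4 in MamBo43 TRT and 39.0, 109, 34.6 and 35.8 in MamBo38. It was called higher (3.59 ± 1.44 log2, edgeR adjusted p = 0.0558), with untreated MamBo43 close to the HER2-negative libraries and MamBo89 near 0. Its log2 fold change was 8.69 without untreated MamBo43. Its partner Col8a2 had 1.11, 2.40, 1.52 and 1.76 CPM in MamBo89, 9.45 in untreated MamBo43, 3.24 and 2.41 in MamBo43 TRT and 0, 0, 0.0596 and 0 in MamBo38 and was not called (-1.76 ± 1.32 log2, edgeR adjusted p = 0.281).

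Col7a1, the chain of the anchoring fibrils that fasten epithelium to stroma, had 1.79, 4.65, 3.73 and 5.95 CPM in MamBo89, 8.16 in untreated MamBo43, 36.1 and 31.8 in MamBo43 TRT and 4.53, 5.86, 5.19 and 4.65 in MamBo38. Its log2 fold change of 1.59 ± 0.70 (edgeR adjusted p = 0.0745) came from MamBo43 TRT, since MamBo38 overlapped with MamBo89. The call was lost without either MamBo43 TRT library or without any 1 MamBo89 library, at 1.10 to 1.67. Col26a1 and Col28a1 had at most 4 counts in any library.

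Tumor of origin and HER2 status overlap in this comparison, because MamBo89 is the only line from tumor A. Taking the tumor as a covariate leaves untreated MamBo43 as the only HER2-positive library of tumor B. Of 30 collagens tested in this way, 10 were called higher and 6 lower, against 1654 and 1619 of all 12364 genes. Col23a1 and Col27a1 then changed sign, to 3.10 (called higher) and 1.88 (not called). The call was lost for 8 of the 16 chains called higher, Col1a1, Col4a4, Col5a3, Col6a1, Col6a2, Col7a1, Col8a1 and Col16a1, whose log2 fold changes became 0.18 to 3.17. Without the 3 MamBo38 libraries of the second code, 15 of 32 collagens were called higher and 5 lower, against 1668 and 1962 of all 12713 genes.

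**Figure D4:**
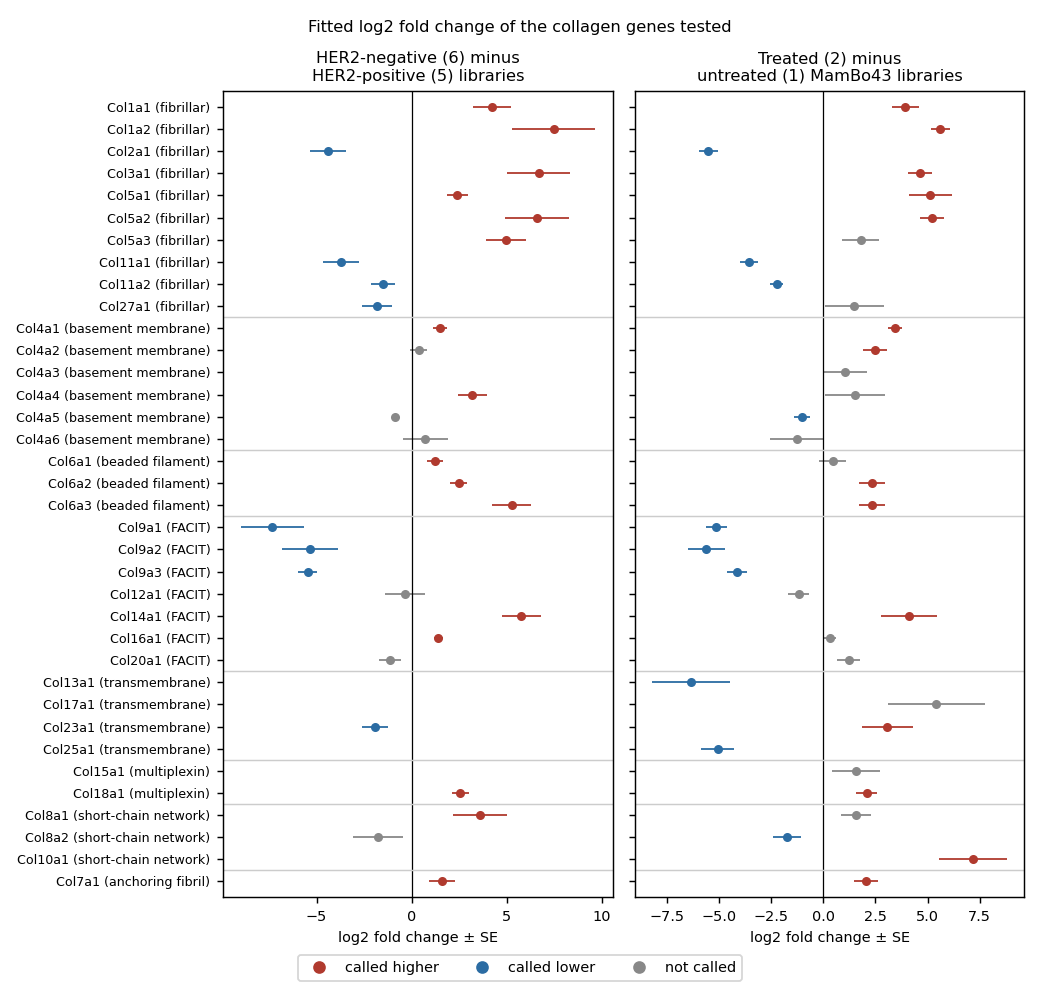
Points give the edgeR log2 fold change and bars its SE for the collagens tested, grouped by class, in HER2-negative against HER2-positive libraries (left) and in treated against untreated MamBo43 (right). Red marks genes called higher, blue those called lower and gray those not called. Both panels share the MamBo43 libraries and so are not independent. In both panels, types I, III and V lie to the right and types II, IX and XI to the left of 0.

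Treated MamBo43 cultures, in which HER2 was lost, differed from the untreated culture in 24 collagens. Between MamBo43 TRT (n = 2) and the single untreated MamBo43 library, 14 of the 36 members tested were called higher and 10 lower. Over all 13782 genes tested, 13.2% were called higher and 15.3% lower, and the median log2 fold change was 1.55 for the collagens and 0 for all genes tested. The untreated arm is 1 library, assumed to vary like the other groups, and it is also part of the HER2-positive group above.

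With both treated libraries, the largest rise was in Col10a1, a short-chain network collagen of hypertrophic cartilage, which had 0, 0.0461, 0 and 0 CPM in MamBo89, 0.235 in untreated MamBo43, 6.52 and 62.9 in MamBo43 TRT and 0.482, 0.335, 0.238 and 0.300 in MamBo38. Its log2 fold change was 7.17 ± 1.62 (edgeR adjusted p = 0.0158), and the library at 60 days was 9.64 times as high as the one after withdrawal. Without the 60-day library its log2 fold change was 4.76. Among fibrillar chains, Col1a2 rose by 5.62 ± 0.47, Col5a2 by 5.22 ± 0.57 and Col5a1 by 5.14 ± 1.04 on the log2 scale, with edgeR adjusted p of 0.000312, 0.000771 and 0.00886. Col3a1 rose by 4.65 ± 0.58 and Col1a1 by 3.94 ± 0.66 (edgeR adjusted p = 0.00134 and 0.00417).

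Both ubiquitous type IV chains rose in these cultures, Col4a1 by 3.43 ± 0.35 and Col4a2 by 2.48 ± 0.59 (edgeR adjusted p = 0.000611 and 0.0159). Col6a2, Col6a3, Col18a1 and Col7a1 rose by 2.06 to 2.36 on the log2 scale. Col6a1 was not called (0.45 ± 0.65, adjusted p = 0.632). Col14a1 and Col23a1 were also called higher but had 1 count each in the untreated library. Their ratios of scaled counts were 19.7 (95% interval 3.32 to 800.0) and 9.31 (95% interval 1.46 to 389). The call of Col14a1 was lost without the 60-day library, and that of Col23a1 without any 1 of the 6 treated libraries and by DESeq2.

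The chains of types II, IX and XI were among the called falls. The largest fitted fall was in Col13a1, which had 0 counts in both treated libraries and is given below as a bound. On the log2 scale the differences were -5.61 for Col9a2, -5.50 for Col2a1 and -5.12 for Col9a1. They were -4.13 for Col9a3, -3.55 for Col11a1 and -2.23 for Col11a2. The edgeR adjusted p of these 6 lay between 0.000303 and 0.00449.

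Of the transmembrane chains, Col25a1, known from plaques in the brain, had 0.194, 0.645, 0.758 and 0.495 CPM in MamBo89, 13.3 in untreated MamBo43, 0.490 and 0.306 in MamBo43 TRT and 0, 0, 0 and 0 in MamBo38. The untreated MamBo43 library was thus the only one over 1 CPM, and treated cultures differed from it by -5.05 ± 0.78 on the log2 scale (edgeR adjusted p = 0.00569). Col13a1, a chain of neuromuscular junctions, had 12 counts in untreated MamBo43 and 0 in both MamBo43 TRT libraries, which makes it at least 7.30-fold lower, with the floor of 3 counts taken over both libraries. Over the libraries it had 3.05, 0.967, 0.350 and 0.110 CPM in MamBo89, 0.471 in untreated MamBo43, 0 and 0 in MamBo43 TRT and 0, 0, 0 and 0 in MamBo38. Col8a2 and Col4a5 were called lower by smaller amounts (-1.74 ± 0.66 and -1.02 ± 0.37, edgeR adjusted p = 0.0858 and 0.0707). The calls of Col13a1, Col8a2 and Col4a5 were lost without either treated MamBo43 library. Those of Col8a2 and Col4a5 were also lost without either treated MamBo89 library, and that of Col4a5 without either treated MamBo38 library.

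Col14a1, Col23a1, Col13a1, Col8a2 and Col4a5 were the members whose call was lost when a library was left out. The calls of all of these were lost without the 60-day MamBo43 library. Log2 fold changes were then 4.04 for Col14a1, 3.46 for Col23a1, -1.54 for Col8a2 and -0.99 for Col4a5. Col13a1 had 0 counts in the treated library that remained, so no fold is given for it. Without the withdrawal library Col14a1 kept its call and the other 4 lost theirs.

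No collagen was called by edgeR for trastuzumab in MamBo89 or MamBo38, whose HER2 status it did not change. In MamBo89 (2 treated and 2 untreated libraries), 0 of 36 collagens and 0.0% of all genes were called, although 3 collagens and 724 genes had an unadjusted p below 0.05. By DESeq2, 29 genes were called, 1 of them a collagen, Col11a1, which was lower in treated libraries (log2 fold change -2.01). The edgeR values of the 3 were -2.02 ± 0.36 for Col11a1, -1.09 ± 0.38 for Col18a1 and -3.11 ± 1.0 for Col13a1, each with an adjusted p of 0.721. In MamBo38, 0 of 36 collagens and 0.0% of all genes were called, with 0 collagens and 230 genes at an unadjusted p under 0.05, and DESeq2 called 1 gene, not a collagen.

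These counts depend on which untreated libraries enter. Leaving the other untreated MamBo89 library out set the treated cultures against AG3 alone, which was taken as a clone. Collagens were then called in both directions, as were many genes outside the family, whereas leaving out AG3 called none. Those higher than in AG3 were Col4a6, Col27a1, Col5a1, Col6a1, Col7a1, Col9a3 and Col4a2, at log2 fold changes of 1.26 to 6.87. Those lower were Col5a3, Col13a1, Col11a1 and Col18a1, at -5.075 to -1.565. Among the 3 MamBo38 libraries of the second code, Col12a1 was called lower after trastuzumab (-1.35 on the log2 scale, edgeR adjusted p = 0.0087). That fit sets 2 treated libraries against 1 untreated one, so its spread is that of the treated pair alone.

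The difference between the lines' responses was tested directly. Against the change in MamBo89, the change in MamBo43 was called higher for 5 collagens and lower for 8, with 11.1% and 11.2% of all genes. The 5 were Col5a1, Col4a1, Col1a1, Col18a1 and Col4a2, and the 8 were Col25a1, Col2a1, Col9a2, Col9a1, Col9a3, Col11a2, Col11a1 and Col4a5. Col1a2, Col3a1 and Col5a2 were not among them, with SEs of 1.96 to 2.76 where MamBo89 had 4 counts or fewer. Without AG3 the counts were 8 and 7, without the other untreated MamBo89 library 6 and 11, and without the 60-day MamBo89 library 3 and 7.

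Against the change in MamBo38, 13 collagens were called higher and 4 lower, with 11% and 8.63% of all genes. The 4 were Col2a1 (-5.57 ± 0.66 log2), Col9a3 (-4.31 ± 0.69), Col11a1 (-3.54 ± 0.60) and Col11a2 (-2.37 ± 0.42), with edgeR adjusted p of 0.0022 to 0.0104. The 13 included Col1a2 (5.44 ± 0.51), Col5a2 (5.69 ± 0.64) and Col10a1 (7.75 ± 1.95), with adjusted p of 0.000931, 0.00179 and 0.0403. All of these fits share the MamBo43 libraries. The number called higher was 6 or 7 without the MamBo38 withdrawal or 60-day library and 8 without the 60-day MamBo43 library.

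HER2-negative cells of both origins were then compared with each other, MamBo43 TRT (n = 2) having lost HER2 in culture and MamBo38 (n = 4) in an animal. Of 34 members tested, 15 were called higher in MamBo43 TRT and 5 lower, against 9.9% and 11.7% of all 12545 genes. The median log2 fold change was 0.60 for the collagens and 0.01 for all genes tested. Both MamBo43 TRT libraries carry the first code and 3 of the 4 MamBo38 libraries the second, so the code partly runs with the groups. With the code as a covariate, an alternative chosen after seeing the data, 14 collagens were higher and 5 lower, Col2a1 (1.27) and Col6a2 (1.02) were not called, Col4a4 was called higher (2.47) and Col14a1 was at -1.42. Luminal markers also differed between these groups, at 2388 and 374 CPM in MamBo43 TRT and 1.35 to 2.73 CPM in MamBo38, and their part in the collagen differences was not tested.

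Col1a1 was the fibrillar chain that separated them most among those of connective tissue, at 3.07 ± 0.20 higher on the log2 scale in MamBo43 TRT (edgeR adjusted p = 0.000178). Col1a2 and Col3a1 differed by only 0.78 ± 0.11 and 0.42 ± 0.18 and were not called (adjusted p = 0.00180 and 0.107). Col5a2 was 1.77 ± 0.28 higher. Lower in MamBo43 TRT were Col15a1 (-4.40 ± 0.38), Col14a1 (-3.11 ± 0.64), Col5a3 (-1.77 ± 0.27), Col18a1 (-1.47 ± 0.15) and Col6a3 (-1.19 ± 0.46), with edgeR adjusted p of 0.000306 to 0.074.

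The cartilage chains were less completely lost in MamBo43 TRT than in MamBo38. Col9a1 had a ratio of scaled counts of 1069 (95% interval 191 to 42300) against the single MamBo38 count, and Col9a2 one of 180.0 (95% interval 31.6 to 7177). Col11a1 was 3.47 ± 0.23, Col2a1 1.73 ± 0.42, Col11a2 1.67 ± 0.18 and Col9a3 1.63 ± 0.25 higher on the log2 scale, with edgeR adjusted p of 0.000182 to 0.0141. MamBo43 TRT and MamBo38 did not overlap in any of these 6 chains, which were already called. The share of all genes without overlap was not counted for this comparison, so this is a description only.

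Other chains that were higher in MamBo43 TRT were Col10a1 (6.65 ± 0.86), Col12a1 (2.85 ± 0.41), Col7a1 (2.75 ± 0.16) and Col20a1 (2.19 ± 0.37), with edgeR adjusted p of 0.000138 to 0.00375. Col17a1 and Col8a2 had 3 counts and 1 count over the 4 MamBo38 libraries, and ratios of 57.0 (95% interval 18.9 to 281) and 228 (95% interval 40.1 to 9058). Over the alternatives run, the fitted log2 fold change of Col10a1 ranged from 4.26 to 7.52 and that of Col17a1 from 3.82 to 6.28. Col6a2 was 1.21 ± 0.35 higher with all libraries and 0.40 without the 60-day MamBo43 library, where it was not called. Col6a3 was not called without the withdrawal MamBo43 library (-0.70), the untreated MamBo38 library that lacks the second code (-0.82) or the 60-day MamBo38 library (-1.26).

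Before treatment, the HER2-positive lines already differed in their collagens. Of 32 members tested between untreated MamBo43 (n = 1) and untreated MamBo89 (n = 2, one of them AG3), 13 were called higher in MamBo43 and 2 lower, against 4.87% and 2.53% of all 12867 genes. The median log2 fold change was 1.33 for the collagens and -0.06 for all genes tested. The spread rests on the pair of MamBo89 libraries alone.

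Untreated MamBo43 already stood above MamBo89 in Col1a1, Col1a2, Col3a1 and Col5a2. That culture held some HER2-negative cells in the study's measurements, and their part in these levels was not tested. Col1a2 had 2502 counts there and 1 count over both untreated MamBo89 libraries, a ratio of scaled counts of 4156 (95% interval 745 to 164200). The ratio was 688 (95% interval 123 to 27220) for Col5a2, at 414 counts against 1, and 484 (95% interval 133 to 4007) for Col3a1, at 583 against 2. Col1a1 was 2.82 ± 0.49 higher on the log2 scale (edgeR adjusted p = 0.00144), whereas Col5a1 was not called (-2.09 ± 0.83, adjusted p = 0.209).

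Among cartilage chains, untreated MamBo43 was higher in Col2a1 by 3.83 ± 0.53, Col9a2 by 2.88 ± 0.49 and Col11a2 by 2.76 ± 0.45 on the log2 scale (edgeR adjusted p = 0.000175, 0.00119 and 0.000752). Col8a1, Col25a1, Col4a6, Col6a3, Col12a1 and Col6a1 completed the 13, at 1.89 to 6.63. DESeq2 did not call Col4a6 (adjusted p = 0.724), which had 1 count in AG3 and 371 in the other untreated MamBo89 library, and Col6a1 was not called with RLE size factors or against all 4 MamBo89 libraries (1.51). The pair lower in MamBo43 was Col4a1 (-2.63 ± 0.54, adjusted p = 0.00568) and Col4a2 (-2.51 ± 0.67, adjusted p = 0.0340). Against the 3 MamBo89 libraries other than AG3, an alternative chosen after seeing the data, more collagens were called in both directions. The same held for all genes.

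Chains that assemble into one protein did not keep a fixed ratio. For type I collagen, the ratio of Col1a1 to Col1a2 levels per length was 1.06 in untreated MamBo43, 0.324 and 0.337 in MamBo43 TRT and 0.0517, 0.101, 0.0565 and 0.0666 in MamBo38. MamBo89 had 221 to 592 counts of Col1a1 with 2 or fewer of Col1a2, so no ratio was formed there. Values of untreated MamBo43, MamBo43 TRT and MamBo38 did not overlap. With the union of exons as length, the means were 0.694 in MamBo43 TRT and 0.145 in MamBo38, because GENCODE gives Col1a2 exon sequence well beyond its longest coding transcript.

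Col4a1 and Col4a2 stood near equal levels in all HER2-negative libraries, at ratios of 0.952 to 1.12. The ratio was 0.562 in untreated MamBo43 and 1.22, 0.393, 0.377 and 0.337 in MamBo89, where AG3 alone exceeded 1. For type V, Col5a1 to Col5a2 was 0.461 in untreated MamBo43, 0.506 and 0.399 in MamBo43 TRT and 0.818, 0.586, 0.998 and 1.13 in MamBo38, and Col5a2 was near 0 in MamBo89.

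In type VI collagen, Col6a1 exceeded Col6a2 everywhere, by 1.63 to 2.09 in MamBo43 TRT, 2.84 to 3.26 in MamBo38, 6.60 in untreated MamBo43 and 2.71 to 6.25 in MamBo89. Col6a3 to Col6a1 was 0.00122 to 0.00604 in MamBo89, 0.0161 in untreated MamBo43, 0.0545 to 0.0622 in MamBo43 TRT and 0.135 to 0.290 in MamBo38, with no overlap between these groups. Ratios for Col4a5 to Col4a6 and for Col11a1 to Col11a2 were added after their values were seen. The former was 24.1 to 77.8 in MamBo89 without AG3, which had 1 count of Col4a6. It was 1.38 in untreated MamBo43, 1.285 and 2.34 in MamBo43 TRT and 2.07 to 2.58 in MamBo38, so the high ratio was confined to MamBo89. The ratio of Col11a1 to Col11a2 was 0.637 to 5.14 in MamBo89, 1.40 in untreated MamBo43, 0.542 and 0.578 in MamBo43 TRT and 0.140 to 0.172 in MamBo38.

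**Figure D5:**
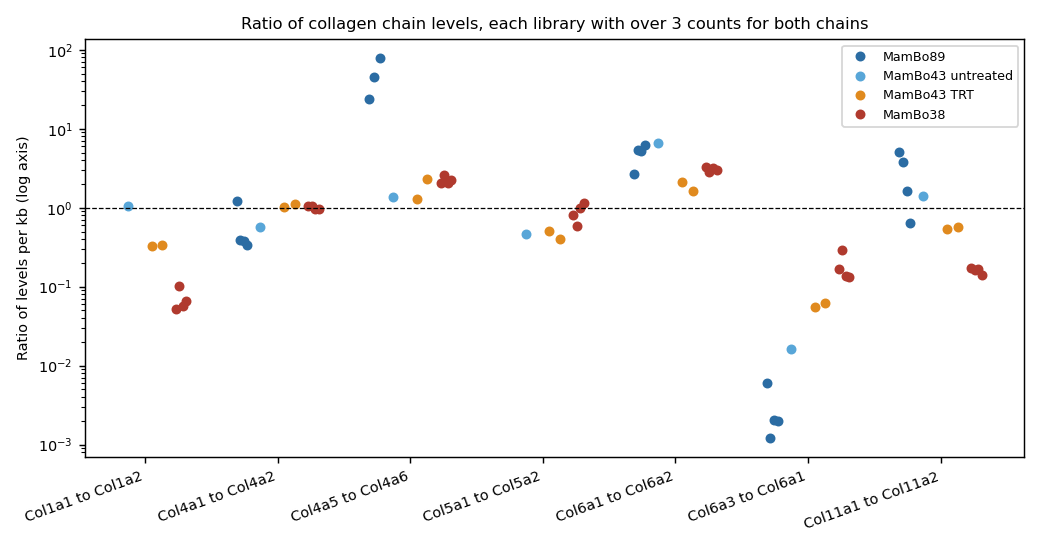
Points give, for each library with more than 3 counts of both chains, the ratio of their levels per kb of transcript (log axis, dashed line at 1) for 7 pairs of chains of one collagen type, colored by group. Col6a3 to Col6a1 climbs from MamBo89 (lowest 0.00122) to MamBo38 (highest 0.29), while Col1a1 to Col1a2 drops from 1.06 in untreated MamBo43 to 0.0517 to 0.101 in MamBo38.

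Several members lie next to each other in the genome, and their levels were compared over the 11 libraries as a description. The points share their lines, which by themselves set much of the spread. Positions here and above come from GENCODE M21 (GRCm38). Col3a1 (chromosome 1, 45311538 to 45349706) and Col5a2 (45374321 to 45503282) lie tail to tail 24614 bases apart, and their log2(CPM + 0.5) had a Pearson's r of 0.991 (n = 11). Col4a1 (chromosome 8, 11198423 to 11312826) and Col4a2 (11312805 to 11449287) overlap head to head by 22 bases, with an r of 0.784. Col4a5 and Col4a6 on the X chromosome have starts 1309 bases apart, and r was -0.224. For Col6a1 and Col6a2, which are on the same strand of chromosome 10, r was 0.897.

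Genes that modify, process, link or bind collagen were counted from fixed lists. Of 14 tested genes for hydroxylation and glycosylation of collagen chains, 6 were called higher and 1 lower in HER2-negative libraries (median 0.63 log2, against -0.04 for all genes tested). P4ha3, a subunit of prolyl 4-hydroxylase, changed most, from 0.0392 ± 0.0877 CPM (SD, n = 5) in HER2-positive to 3.84 ± 1.06 CPM (SD, n = 6) in HER2-negative libraries (6.23 ± 0.87 log2, edgeR adjusted p = 0.000154). Plod1, a lysyl hydroxylase, rose by 1.75 ± 0.37 (edgeR adjusted p = 0.00237), and P3h2, a prolyl 3-hydroxylase of basement membrane collagen, was the 1 lower (-1.13 ± 0.40, adjusted p = 0.0339). Among 6 genes of folding and export, Fkbp10, a chaperone of type I procollagen, was the only one called (list median 0.69 log2), from 0.929 ± 1.19 CPM to 137 ± 30.8 CPM (7.14 ± 0.72 log2, edgeR adjusted p = 2.11e-05).

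Of 5 tested genes for removal of propeptides, 3 were higher (list median 2.97 log2), with Adamts14 at 4.79 ± 0.44 and Adamts2 at 3.50 ± 0.48 on the log2 scale (edgeR adjusted p = 1.16e-05 and 0.000149). Crosslinking enzymes of the lysyl oxidase family were higher in 3 of 5 (list median 6.07 log2), with Loxl1 at 6.88 ± 0.37 and Loxl2 at 6.83 ± 1.04 (edgeR adjusted p = 6.35e-07 and 0.000282). Among fibril-associated proteins 4 of 5 were higher (list median 3.75 log2), led by the small proteoglycans Bgn (6.32 ± 1.91) and Dcn (5.69 ± 1.64), with edgeR adjusted p of 0.0163 and 0.0131.

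Of 8 collagen receptors tested, 3 were called higher and 2 lower (list median -0.20 log2), against 15.8% and 17% of all genes tested. Ddr2, a receptor tyrosine kinase for fibrillar collagen, went from 2.74 ± 3.96 CPM (SD, n = 5) to 664 ± 104 CPM (SD, n = 6) with HER2 loss (7.91 ± 1.22 log2, edgeR adjusted p = 0.000298). Ddr1, its relative in epithelia, went from 176 ± 28.8 CPM to 38.3 ± 5.78 CPM (-2.20 ± 0.15, adjusted p = 1.90e-06). The integrin chain Itga11, a receptor for type I collagen, was higher (5.50 ± 1.02, adjusted p = 0.001), and Itga2 was lower (-5.08 ± 0.80, adjusted p = 0.000339). Untreated MamBo43 had 1.26 CPM of Itga2, within the HER2-negative range of 0.225 to 1.62, so that MamBo89 alone was high.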

How the data were processed

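RNA was sequenced as 75-base single-end reads (TruSeq RNA Sample Prep Kit v2, which keeps no strand) from 11 cultures. The authors aligned reads with STAR 2.5 and counted them per gene with RSEM 1.3.0. The deposited values are expected counts on build mm10, all whole numbers and not normalized. The annotation is not given in the sources used here, and gene positions, lengths and overlaps were taken from GENCODE M21 (GRCm38). Totals were 17040454 to 27127662 counts per library, at which 3 counts equal 0.112 to 0.179 CPM.

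Samples were grouped by their labels, with HER2 status by line and treatment from the study's methods. Each comparison was fitted on all genes with edgeR 4.0.16 (R 4.3.3), using TMM scaling, the filterByExpr rule (minimum count 10, minimum total 15) and the quasi-likelihood test, which was tested on simulated data. HER2-negative against HER2-positive used all 11 libraries, MamBo43 TRT against MamBo38 and untreated MamBo43 against untreated MamBo89 used only their own libraries, and the trastuzumab comparisons 1 fit of 11 libraries in 6 groups. Genes with a Benjamini-Hochberg adjusted p below 0.1 that moved by 1 log2 unit or more were called. Levels per length are CPM per kb of the longest protein-coding transcript. Where a group held 1 to 3 counts, a ratio of scaled counts is given with its exact 95% interval, and a group at 0 was set to 3 counts.

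Alternatives were relative log expression (RLE) size factors, no filter, DESeq2 1.42.0, each library left out, tumor as a covariate, code as a covariate (chosen after seeing the data), subsets by code, other fits and the union of exons as length. Values are given per library for collagens called in the main or the MamBo43 comparison and the highest of each class, and for the pathway lists the 2 largest changes in each direction are named. The members, classes and lists (textbook collagen enzymes, crosslinkers, fibril-associated proteins, receptors and cell type markers) were chosen with earlier results of these data known.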

Additional observations from a re-analysis of the deposited data

Results flagged for a closer look

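Over 30 collagens, 18 of 59 tests within a HER2 group found a library that stood apart from the rest of its group by Dixon's criterion, where chance would give about 1 in 20. Untreated MamBo43 accounted for 12 of the 13 in the HER2-positive group, in which it is the only library of its line. It stood above MamBo89 with 115 CPM of Col1a1, 98.1 of Col1a2, 74.2 of Col2a1, 22.9 of Col3a1, 16.2 of Col5a2, 143 of Col11a2, 8.51 of Col6a3, 116 of Col9a2, 13.3 of Col25a1, 24.1 of Col8a1, 9.45 of Col8a2 and 0.235 of Col10a1. The remaining HER2-positive library was AG3, with 745 CPM of Col18a1. In the HER2-negative group, the MamBo43 library at 60 days stood apart in Col3a1 (709.9 CPM), Col6a2 (271) and Col10a1 (62.9), and the one after withdrawal in Col4a1 (407) and Col9a2 (4.22).

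The change under trastuzumab differed between MamBo43 and MamBo89, by an interaction test in edgeR, in 13 collagens. The change in MamBo43 was the higher by 4.46 for Col5a1, 3.89 for Col4a1, 3.44 for Col1a1, 3.17 for Col18a1 and 2.17 for Col4a2 on the log2 scale. It was the lower for Col25a1 (-5.60), Col2a1 (-5.07), Col9a2 (-4.87), Col9a1 (-4.84), Col9a3 (-4.57), Col11a2 (-2.35), Col11a1 (-1.52) and Col4a5 (-1.32).

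Against MamBo38 the change in MamBo43 differed in 17 collagens. It was the higher for Col10a1 (7.75), Col5a2 (5.69), Col1a2 (5.44), Col5a1 (4.97), Col3a1 (4.53), Col1a1 (4.05), Col4a1 (3.48), Col6a3 (2.92), Col8a1 (2.64), Col4a2 (2.40), Col6a2 (2.16), Col7a1 (2.13) and Col18a1 (1.94). It was the lower for Col2a1 (-5.57), Col9a3 (-4.31), Col11a1 (-3.54) and Col11a2 (-2.37). The untreated MamBo43 library that stood apart above is the baseline of all of these differences, and its part in them was not tested.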

How the results depend on the processing

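Of the collagens called, 13 of 24 in HER2-negative against HER2-positive libraries, 17 of 20 in MamBo43 TRT against MamBo38, 13 of 15 in untreated MamBo43 against untreated MamBo89 and 19 of 24 in treated against untreated MamBo43 kept their call under every alternative run, apart from DESeq2 in the first comparison for Col2a1 and Col3a1, whose adjusted p it gave as NA. With the tumor as a covariate, HER2-negative libraries had 10 collagens higher, and Col27a1 (1.88) and Col23a1 (3.10) changed sign. Libraries of the first code alone gave 5 lower. Untreated MamBo43 against the 3 MamBo89 libraries other than AG3, chosen after seeing the data, gave more collagens lower, and more of all genes. For trastuzumab, DESeq2 gave 1 lower in MamBo89, and the second-code libraries 1 lower in MamBo38. DESeq2 gave 11 higher for the change in MamBo43 against that in MamBo89. The cause of these differences was not tested.

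Leaving out 1 library at a time gave 0 to 7 higher and 0 to 4 lower in MamBo89, 3 to 8 higher for the change in MamBo43 against MamBo89 and 6 to 14 higher against MamBo38. The number of all genes called moved between these fits as well. Leaving out a library was not run for untreated MamBo43 against untreated MamBo89, where no residual degree of freedom would be left.

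With the union of exons as length, Col1a1 to Col1a2 averaged 0.145 in MamBo38 and 0.694 in MamBo43 TRT, Col4a1 to Col4a2 0.910 and 0.982, and Col5a1 to Col5a2 1.27 and 0.649. Col6a1 to Col6a2 was 8.21 in MamBo89, 5.14 in MamBo38 and 3.12 in MamBo43 TRT, and Col6a3 to Col6a1 was 0.0527 in MamBo43 TRT. HER2-negative levels became 279 CPM per kb for Col1a2, 48.8 for Col3a1 and 28.0 for Col16a1. These follow from the longer lengths.

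No paired analysis was possible because the labels give the groups no shared replicate numbers. Depth leaves collagens under about 10 counts a library untested, and untreated MamBo43 is 1 library in every comparison that uses it.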

Other observations

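The transcription factors Sox9 and Sox5, known as drivers of cartilage collagen genes, were looked up after the values of Col2a1 and of the type IX and type XI chains had been seen. Sox9 had 217 ± 54.9 CPM (SD, n = 5) in HER2-positive and 75.5 ± 30.7 CPM (SD, n = 6) in HER2-negative libraries (log2 fold change -1.52 ± 0.28, edgeR adjusted p = 0.000959), with no overlap between groups. Sox5 had 20.0 ± 6.68 and 1.62 ± 1.29 CPM (-3.63 ± 0.55, edgeR adjusted p = 0.000261), also without overlap. Sox6 and Acan, the core protein of the cartilage proteoglycan, were not called (-1.35 ± 1.05 and -0.70 ± 1.75, edgeR adjusted p = 0.304 and 0.758). Acan had 0 counts in all 4 MamBo38 libraries, 15.4 and 3.78 CPM in MamBo43 TRT, 22.6 CPM in untreated MamBo43 and 0.339 to 1.60 CPM in MamBo89. The cartilage chains were higher in MamBo43 TRT than in MamBo38, but Sox5 was lower there (-1.74 ± 0.70 log2, edgeR adjusted p = 0.0806). Sox9 was not called in that comparison (-0.94 ± 0.28, adjusted p = 0.0292). Sox6 and Acan were called higher in it, against almost no counts in MamBo38.

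Within groups of the same line and HER2 status, the highest library of a collagen stood above the lowest by a median of 1.48-fold over 24 collagens in MamBo38, 1.48-fold over 27 in MamBo43 TRT and 2.25-fold over 19 in MamBo89, or 1.51-fold over 22 without AG3. In MamBo43 TRT, where the summed luminal markers were 2388 CPM after withdrawal and 374 CPM at 60 days, the widest gap was the 9.64-fold one in Col10a1.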
